A study of Macaca mulatta with 102 samples.

Results

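In the cells of rhesus macaque milk, 120 of 42701 annotated transcripts fell from day 30 to day 90 of lactation under a rule that used the milk cell values themselves. The values are FPKM (a level in sequenced fragments, corrected for transcript length and library size) as deposited, averaged over the 3 technical runs of a sample. For each of the 6 animals the day 30 value was divided by the day 90 value after 0.1 was added to both. A transcript was kept if its locus spanned more than 1000 bases, its mean over the 12 milk cell samples was at least 2 FPKM, its ratio was above 1 in all 6 animals and its ratio was at least 1.5 in 5 or more. The span and level filter left 9862 transcripts, and 1.22% of these met the rule. The fall in milk cells therefore chose the list, and it is described below with no test.

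The study sequenced poly(A) RNA from the milk and mammary gland of 6 rhesus macaques (called M1 to M6 here), to ask how far RNA recovered from milk represents the gland. The mothers were prime-aged, had given birth several times before, came from an outdoor breeding colony and were nursing sons. Milk taken after oxytocin at day 30 and day 90 post-partum was spun into a fat layer and a cell pellet, so the 12 milk cell samples and the 10 milk fat samples (4 animals at day 30, all 6 at day 90) come in part from the same milk. Each animal gave 1 biopsy, at day 30 in M3, M4 and M6 and at day 90 in M1, M2 and M5, so that biopsies of the 2 days come from different animals. The study notes mastitis in 1 mother after the biopsy without saying which. A further 6 day 90 samples carry labels that name fat in 5 animals and skim in M3. They are called cell-free milk here on the assumption that they are the samples to which the study gives that name.

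A pellet of milk cells is a mixture. It holds immune cells that have crossed into milk and epithelial cells shed from the alveoli and ducts, and its RNA is the sum over all of them. Milk fat globules leave the secretory cell wrapped in its apical membrane and sometimes trap a crescent of cytoplasm, so the fat layer carries RNA of the milk-producing epithelium. The study notes that all its sample types, milk fat included, held several cell types. It could hardly tell epithelial RNA of crescents in milk fat from that of shed cells. A biopsy adds stroma, vessels and fat tissue to the secretory epithelium. In all of these samples, fewer cells of a type and less RNA per cell cannot be told apart. Nor does a ratio of FPKM give absolute amounts, since FPKM are relative to the rest of the library.

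The values are listed by Ensembl transcript identifier, and neither the deposited table nor the name tables used here pair these identifiers with gene names, so the members are given by their loci on the rheMac2 assembly. Gene lists and cell type markers could not be applied for the same reason. The members occupied 115 separate loci on 21 chromosomes, with 14 on chromosome 7, 13 on chromosome 1, 11 each on chromosomes 4 and 11, 9 on chromosome 14 and 8 on chromosome X. Relative to the transcripts past the filter, chromosome X held the largest share of members at 2.48% and chromosome 6 the smallest at 0.216% among the chromosomes with a member. There were 4 stretches of overlapping loci with more than 1 member, which together held 9 members. One of them, on chromosome 11 from 49338174 to 49361985, held 3 members within 23811 bases. In all, 70 members overlapped another transcript of the table. Reads in such loci are divided between transcripts by an estimate, so members of a stretch are not independent of each other, and no strand is given. Loci of the members were short. Their median span was 9678 bases, from 1045 to 380940, against 21353 bases over all transcripts past the filter.

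Relative depth, estimated from the spacing of low FPKM and set to 1 in the median sample, was 0.856 to 1.11 in day 30 milk cells and 0.850 to 1.19 in day 90 milk cells. The day 30 library was the deeper one in 2 of 6 animals. Milk fat ranged from 0.743 to 1.63 and biopsies from 0.741 to 1.37. FPKM do not carry read counts, so no counting interval was computed. The spread between the technical runs of a sample is given instead, and it does not cover variation between milk samples. Over the members, the coefficient of variation between the 3 runs of a milk cell sample had a median of 11.5%, which fell to 2.75% for members of at least 50 FPKM and stood at 24.4% for those under 5 FPKM. In 72 of the 120 members, every day 30 run lay above every day 90 run in all 6 animals, beside 7.7% of the transcripts past the filter. The rule used the means of these same runs, which favours this count, so it is a description.

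Across the 12 milk cell samples the mean level of a member ran from 2.03 to 698 FPKM with a median of 9.65, and 62 members lay under 10 FPKM while 7 reached 100. These 7 supplied 42.9% to 58.5% of the summed FPKM of the list in a milk cell sample. The summed FPKM was 3979 to 8576 in the day 30 samples with a median of 4667, and 2026 to 4222 in the day 90 samples with a median of 2615. The ranges touched only because of M2, which had the highest sum on both days, 8576 and 4222. Within animals the sum at day 30 was 1.67 times that at day 90 in M1, 2.03 in M2, 1.79 in M3, 1.96 in M4, 2.50 in M5 and 1.98 in M6.

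The median over the 6 animals of a member's ratio ran from 1.52 to 4.33, with a median over the list of 1.87 against 1.07 over all transcripts past the filter. Most members fell modestly: 76 had a median ratio under 2 and 11 reached 3. The fall was largest in M5, whose median ratio over the members was 2.39, while the other 5 animals lay between 1.68 (M1) and 1.93 (M6). M5 gave the largest of the 6 ratios for 65 members, and 22 members had a ratio over 5 in M5. The transcripts past the filter were also shifted in this animal, with a median ratio of 1.25 in M5 and 1.15 in M3 (0.32 and 0.21 on the log2 scale), against 0.996 to 1.03 in the other 4. After scaling by median-of-ratios factors (which set the typical transcript equal between samples), the median member ratio was 1.96 in M4, 1.93 in M5, 1.91 in M6, 1.80 in M2, 1.69 in M1 and 1.57 in M3, so M5 was no longer the largest. On this scale 68 of the 120 members still met the rule.

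**Figure D1:**
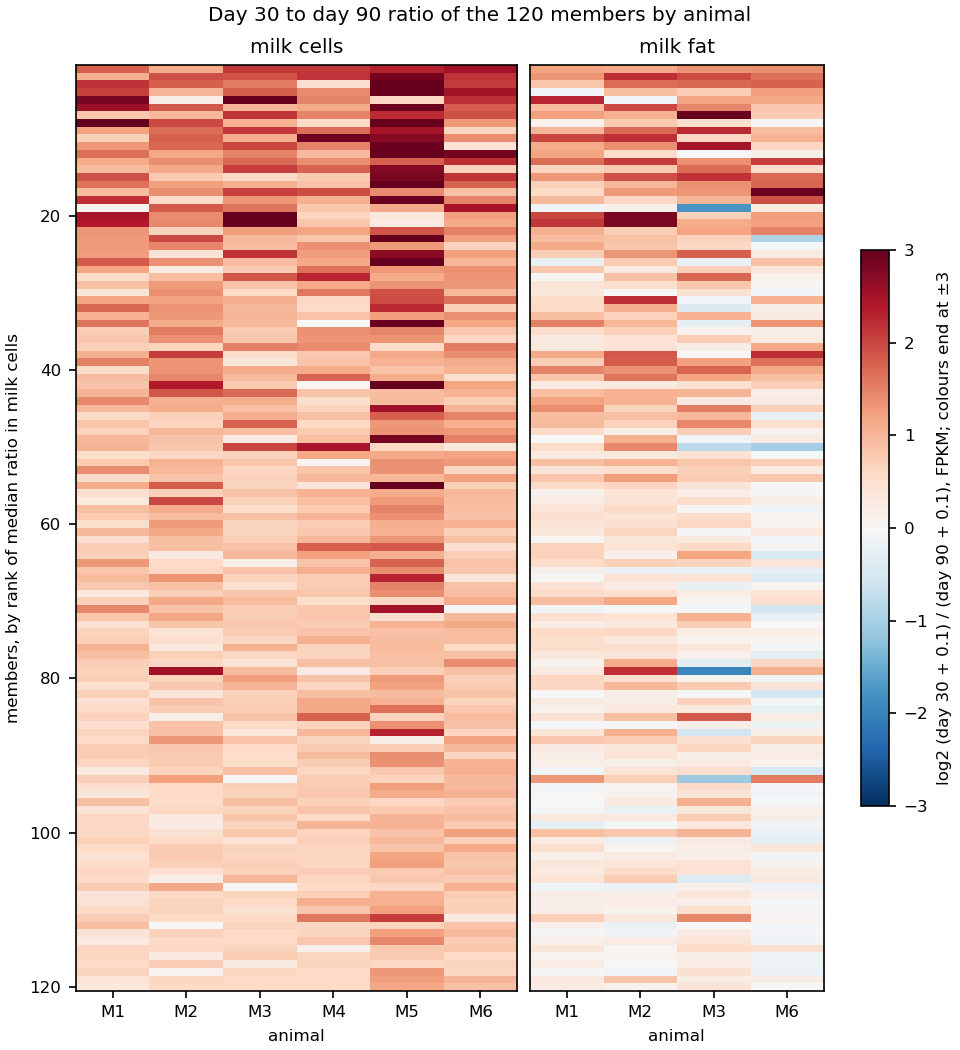
Each row is 1 of the 120 members, ordered by median ratio in milk cells, and each column is an animal; colour gives the log2 ratio of day 30 to day 90 FPKM in milk cells (left, 6 animals) and milk fat (right, the 4 animals with both days). All milk cell entries are above 0 because the rule required it, M5 is the darkest column, and the milk fat columns are paler with some entries below 0, most often in M6.

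Animals also differed in level. For 100 of the 120, day 30 and day 90 samples overlapped in level when animals were pooled. Only 20 had all 6 day 30 samples above all 6 day 90 samples (2.23% of the transcripts past the filter did). The rule used these same values, which favours such a separation, so this is a description. Just inside the rule, the fifth highest of the 6 ratios was 1.501 for the member at chr18:10892418-10908940 and 1.502 for that at chr7:41695464-41753923. Just outside it stood chr16:59210674-59213448 at 1.4996 and chr6:99368862-99446031 at 1.4993.

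The largest median ratio in milk cells, 4.33, belonged to the transcript ENSMMUT00000030237 at chr4:29289740-29292775. Its 6 day 30 samples had a lowest value of 17.3 FPKM, a median of 40.8 and a highest of 349, and its day 90 samples 2.93, 10.8 and 70.3. M5 was the highest and M6 the lowest on both days, so that the days overlapped although each animal fell, by 2.17 times in M2 to 5.75 times in M6. In milk fat its day 30 values were 35.7 (M1), 35.3 (M2), 20.3 (M3) and 15.6 (M6) FPKM, and at day 90 the same animals had 15.6, 15.9, 7.94 and 5.85. The fat samples thus fell in 4 of 4 animals, by 2.21 to 2.64 times. M4 and M5, which had no day 30 fat sample, stood at 9.05 and 49.2 FPKM at day 90. Biopsies held 5.38, 11.3 and 2.82 FPKM at day 30 (M3, M4, M6) and 3.16, 4.38 and 16.7 at day 90 (M1, M2, M5), with the highest value in M5 here too and with overlapping days.

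The second largest median ratio, 4.15, belonged to chr16:51605613-51610791. Its day 30 and day 90 samples were apart in milk fat and in biopsies, though not in milk cells. Milk cells at day 30 held 55.1 FPKM at the lowest (M5), 125 at the median and 130 at the highest, and at day 90 they held 7.46 (again M5), 30.6 and 61.5. The groups overlapped only through M5, whose day 30 value lay below the day 90 value of M1, 61.5. Milk fat held 190, 303, 225 and 124 FPKM at day 30 in M1, M2, M3 and M6, and from 11.3 to 76.4 with a median of 52.8 at day 90, with no overlap between days. Biopsies held 114, 111 and 110.0 FPKM at day 30 and 40.4, 24.8 and 28.7 at day 90, also without overlap. On the log2 scale the difference between days was 1.99 (standard error 0.48) in milk fat and 1.58 (standard error 0.33) in biopsies, with limma adjusted p of 0.793 and 0.960 over all transcripts tested, so neither passed the threshold. With the animal as a block, the milk fat value had an adjusted p of 0.0857. Cell-free milk at day 90 held 7.90 to 69.4 FPKM, with the lowest value in M5 as in milk cells and fat.

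Another pair of loci, with median ratios of 3.85 and 3.80, differed widely in level between animals. At chr7:118157224-118173580 milk cells held 10.2, 19.3 and 475 FPKM (lowest, median, highest) at day 30 and 2.31, 7.26 and 138 at day 90, and the highest sample was M2 on both days. The ratio was 12.7 in M5 and 1.42 in M4. Milk fat of M2 held 53.2 FPKM at day 30 and 16.6 at day 90, while no other fat sample passed 4.13. Biopsies did not show this order: M2 had 6.08 FPKM, within the 4.10 to 12.98 of the other 5 animals. At chr8:83718876-83723335 milk cells held 5.23, 16.9 and 206 FPKM at day 30 and 0.843, 4.74 and 101 at day 90, again with M2 highest, and the ratio reached 13.98 in M5. Biopsies held 16.3 to 41.7 FPKM of this transcript and milk fat 0.545 to 26.3, and only the day 30 fat of M2 reached into the biopsy range.

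Of the members with the highest levels, the first was ENSMMUT00000020004 at chrX:10663547-10665654, with 678, 722 and 1696 FPKM (lowest, median, highest) at day 30 and 278, 394 and 694 at day 90 in milk cells. Only the day 90 sample of M2, at 694 FPKM, reached into the day 30 range, and ratios ran narrowly from 1.82 to 2.56. Its milk fat fell in 4 of 4 animals but less, from 1028, 1736, 891 and 663 FPKM to 779.9, 1217, 509 and 633, a median ratio of 1.37. Its coefficient of variation between runs was the smallest of the list. The second by level, chr14:76260677-76265348, fell from a median of 426 to 211 FPKM in milk cells (range 234 to 536 and 194 to 272). Its milk fat was 628, 764, 959 and 348 FPKM at day 30 and 382 to 689 at day 90, and in M6 the day 90 sample was the higher one. At the third, chr10:5494095-5498062, milk cells fell from a median of 403 to 232 FPKM, whereas milk fat had a median of 508 at day 30 and 493 at day 90, and its fat ratio was above 1 in 1 of 4 animals.

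**Figure D2:**
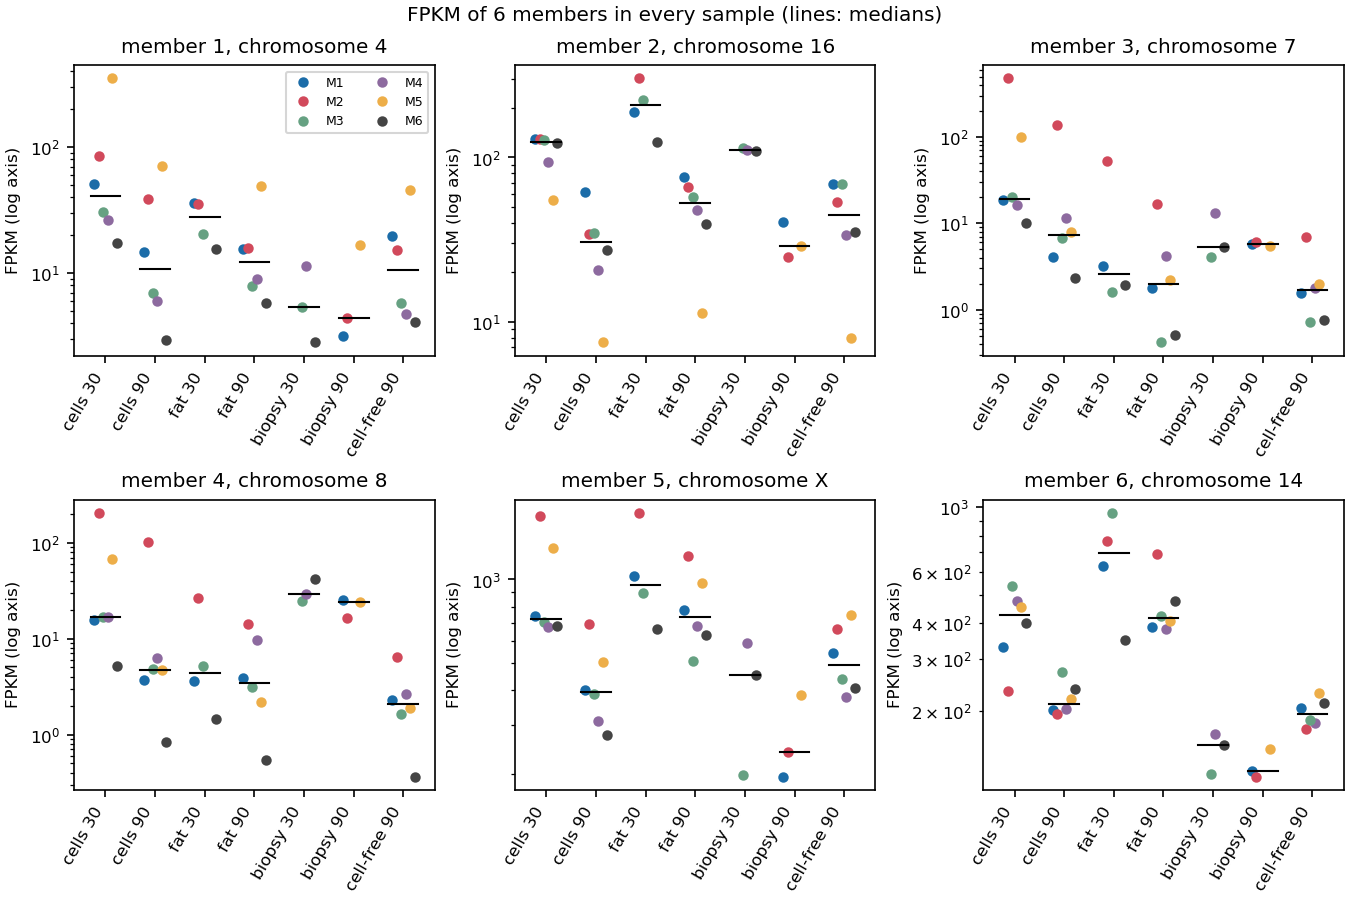
FPKM on log axes of 6 members in every sample, by sample type and day, with animals in colour and a line at each group's median; cell-free is the name used here for the samples labelled as a further fat or skim fraction. Members 1 to 6 are the loci on chromosomes 4, 16, 7, 8, X and 14 described in the text. Member 2 falls within animals in milk cells and fat, and its day 90 biopsies, which come from other animals, lie below those of day 30. M2 lies far above the other animals for members 3 and 4 in milk, and biopsies of members 5 and 6 lie below milk fat by their medians.

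Some of the largest ratios rest on low and unsteady values. At chr9:12427209-12456229 the ratio was 36.5 in M5, and the coefficient of variation between runs had a median of 86.8% over the milk cell samples, the highest of the list. The member at chr16:31353128-31360621 had a median ratio of 3.22 from medians of 0.928 FPKM at day 30 and 0.0979 at day 90, and its mean of 3.22 FPKM came mainly from M2, at 25.0 and 6.23 FPKM. If the 3 runs were combined by their median, 122 transcripts met the rule and 85 of them were among the 120.

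Milk fat was not used by the rule, although it came from the same animals and in part from the same milk. In the 4 animals with both days, the ratio of day 30 to day 90 was above 1 in all 4 for 65 of the 120 members (54.2%), against 22.1% of the transcripts past the filter. It was above 1 in 3 animals for 39 members, in 2 for 9, in 1 for 6 and in none for 1. A ratio of at least 1.5 in 4 of 4 animals was reached by 22 members (18.3%), against 0.801% of the transcripts past the filter, and for 6 members all 4 day 30 fat samples lay above all 6 day 90 fat samples, against 0.74%. The median fat ratio of the members was 1.31 beside 1.13, and after median-of-ratios scaling it was 1.15 beside 0.995, with 47 members above 1 in 4 of 4 animals beside 9.3%. By animal the median member ratio in fat was 1.36 in M1, 1.44 in M2, 1.38 in M3 and 1.14 in M6. A ratio above 1 was found for 108 members in M1, 109 in M2, 102 in M3 and 82 in M6, where the shares of the transcripts past the filter were 73.1%, 84.4%, 56.4% and 52.7%. Without M6, 90 members were above 1 in the other 3 animals, beside 39.4% of the transcripts past the filter.

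The median ratio in milk fat was below that in milk cells for 108 of the 120 members, which the choice of members by their milk cell ratio favours, so no difference between the types is read from it. Over the same 4 animals the members' median ratio was 1.79 in milk cells. Members that fell most in cells also had the larger ratios in fat. The 24 with the largest median ratio in cells (2.42 to 4.33) had a median fat ratio of 2.30, and 18 of them were above 1 in 4 of 4 animals. The 24 with the smallest (1.52 to 1.66) had a median fat ratio of 1.12, and 9 of them were above 1 in 4 of 4. Both ends come from the same list, and milk cells and fat share animals and pools, so this is a description. A median fat ratio of at least 2 was found for 24 members, beside 1.80% of the transcripts past the filter.

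**Figure D3:**
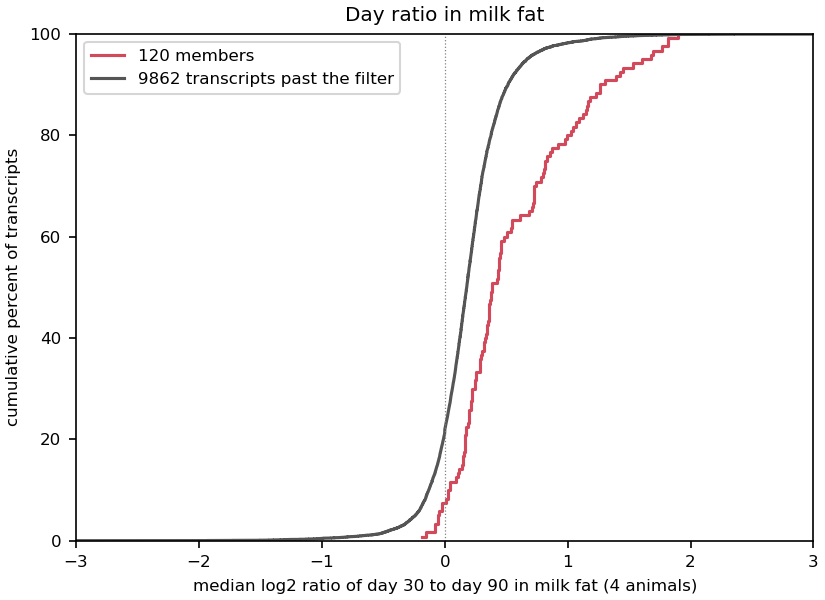
Cumulative percent of transcripts (vertical axis) against their median log2 ratio of day 30 to day 90 in milk fat over 4 animals (horizontal axis), for the 120 members and for all 9862 transcripts past the span and level filter; 10 transcripts lie beyond the axis. The curve of the members lies to the right of the other over most of its length, with medians at ratios of 1.31 and 1.13.

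By limma on log2(scaled FPKM + 1) with Benjamini-Hochberg adjustment, 0 of the 115 members tested in milk fat differed between days, and 0 of all 12609 transcripts tested (0%). The study's own DESeq test of read counts did call genes between days in milk fat, mammary tissue and milk cells. The fit here used FPKM of 4 against 6 samples, so 0 calls do not show that no transcript changed. At an unadjusted limma p under 0.05, 20 members passed and all 20 were higher at day 30, beside 1.86% of all transcripts tested that passed in that direction. Their log2 differences ran from 0.41 to 1.99. With the animal as a block, 34 members passed at the unadjusted threshold, 33 of them higher at day 30, beside 4.2% of all transcripts in that direction and fit, again with 0 after adjustment. The lowest adjusted p among the members was 0.400, at chr7:124692400-124745670, where milk fat held 26.7 ± 6.97 FPKM at day 30 (SD, n = 4) and 13.3 ± 3.12 at day 90 (SD, n = 6), a limma log2 difference of 0.76 (standard error 0.13). The median log2 difference in this fit was 0.22 over the members and -0.02 over all transcripts tested.

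Only 1 member moved against the rule in all 4 animals of milk fat. At chr10:81594505-81596831 milk cells fell from a median of 6.70 to 2.86 FPKM, with ratios of 1.01 to 5.67, while milk fat had ratios of 0.939 in M1, 0.997 in M2, 0.957 in M3 and 0.674 in M6. The ratios of M1, M2 and M3 lay close to 1. Day 30 and day 90 fat levels overlapped, with 0.406 to 4.54 and 0.429 to 4.55 FPKM.

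In mammary biopsies, 0 of 112 members tested differed between days by limma after adjustment, and 0 of 13762 transcripts (0%). At an unadjusted limma p under 0.05 there were 5 members, all 5 higher at day 30, beside 1.58% of all transcripts. The 3 day 30 biopsies all lay above the 3 day 90 biopsies for 13 of the 120 members, against 5.8% of the transcripts past the filter. By geometric mean 101 members were higher at day 30, but so were 76.9% of the transcripts past the filter, and the median ratio of the members (1.26) was close to that of all these transcripts (1.20). Since each animal gave 1 biopsy, days and animals cannot be told apart in this comparison. With 3 biopsies per day, 0 calls do not show that no transcript changed. The study's DESeq test of read counts did call genes between these days. Leaving out M3 raised the 5 members to 12, and the share of all transcripts to 3.49%.

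Between sample types, more members differed. Of 116 members tested by limma between milk fat and biopsies (6 animals against 6, days averaged), 60 were higher in milk fat and 10 were lower at an adjusted p under 0.05. Of all transcripts tested, 29.9% were called higher and 25% lower, and of those past the filter 33% and 21.9%. With a change of more than 3-fold required as well, 13 members were higher and 6 lower, where the shares over all transcripts were 3.24% and 6.33%, and over those past the filter 3.07% and 3.19%. The median log2 difference was 0.75 over the members and 0.07 over all transcripts tested. Members called higher had log2 differences of 0.55 to 2.73 with a median of 1.24. The study reported lower RNA integrity in macaque milk fat than in milk cells or mammary tissue. Sample type and RNA quality therefore cannot be told apart in comparisons of milk fat with the other types.

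The 2 members of the highest level were higher in milk fat. The chromosome X member had 911 ± 359 FPKM in milk fat (SD, n = 10 samples from 6 animals) and 345 ± 160.1 in biopsies (SD, n = 6). Its limma log2 difference, with the days of an animal averaged first, was 1.22 (standard error 0.19, adjusted p = 0.000168). At chr14:76260677-76265348 the means were 547 ± 204 and 138 ± 19.7 FPKM, with 1.63 (standard error 0.16, limma adjusted p = 4.27e-06). All 10 fat samples lay above all 6 biopsies at this locus, whereas on chromosome X the biopsy of M4, at 590.3 FPKM, exceeded the day 90 fat of M3, at 509. The chromosome 4 member of the largest day ratio had a log2 difference of 1.25 (standard error 0.43, limma adjusted p = 0.0247), with overlap between the types.

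The 10 members lower in milk fat had log2 differences of -0.58 to -3.02. The 2 furthest were chr1:132053345-132054976 at -3.02 (standard error 0.33, limma adjusted p = 1.11e-05) and chr15:81909935-81929998 at -2.96 (standard error 0.28, limma adjusted p = 3.03e-06). The former held 26.1 to 53.7 FPKM in the 6 biopsies and 1.25 to 17.5 in the 10 fat samples, with no overlap. The latter held 5.20 to 15.5 FPKM in biopsies, 0.249 to 38.3 in milk cells, and 7.10 in the day 30 fat of M2, where all fat samples of other animals lay at or under 0.471. The locus on chromosome 8 was also lower, by -2.47 (standard error 0.45, limma adjusted p = 0.000525). These 10 had a median day ratio of 2.14 in milk cells and the 60 a median of 1.74, a difference that was not tested because the rule chose the ratios.

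Against milk cells the list was near parity with fat. The median ratio of milk cells to milk fat was 0.975 over the members and 1.02 over the transcripts past the filter, and 63 members were higher in fat and 57 in cells. Milk cells were at 1.92 times the level of biopsies (1.31 over the transcripts past the filter), and 108 members were higher in cells than in biopsies, as were 70.4% of the transcripts past the filter. The level filter used milk cells, so these ratios are given without a test. Grouped after the values were seen, 7 members were more than 3 times higher in cells than in fat (5.83%, beside 5.73% of the transcripts past the filter). These 7 had a median day ratio of 2.65 in cells and 7.83 in M5, and biopsies held 3.40 times the level of milk fat. The 50 members up to 3 times higher in cells had a median day ratio of 2.09, and the 63 higher in fat had one of 1.73, with biopsies at 0.337 times milk fat.

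**Figure D4:**
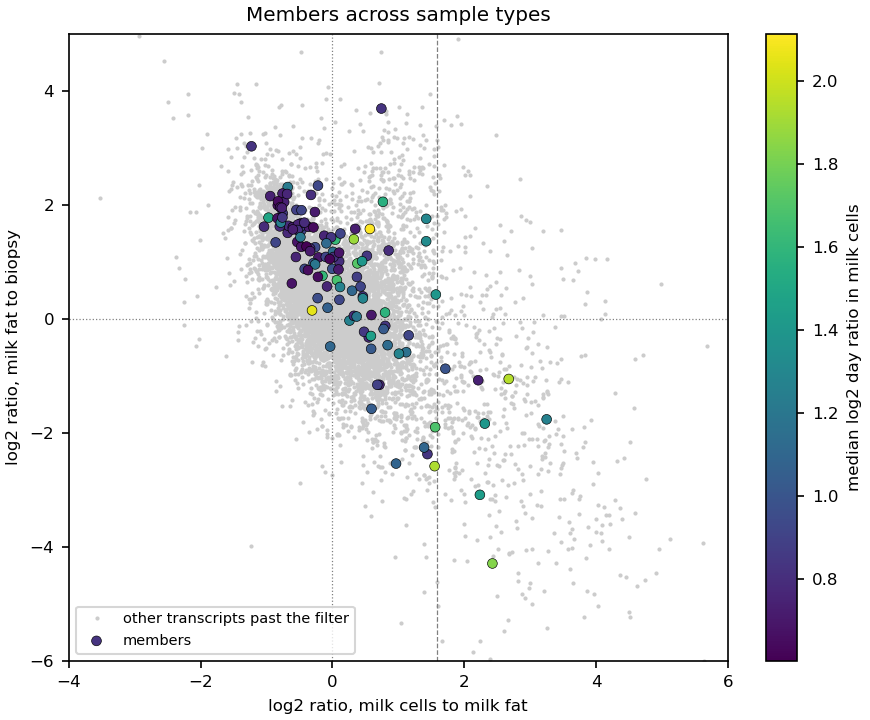
Log2 ratio of milk cells to milk fat (horizontal axis) and of milk fat to biopsies (vertical axis), from geometric means over animals of FPKM + 0.1, for the 120 members (coloured by median log2 day ratio in milk cells) and the other transcripts past the filter (grey; 23 lie beyond the axes). Most members (93 of 120) lie above 0 on the vertical axis, where milk fat exceeds biopsies, and the 7 to the right of the dashed line at 3-fold lie below 0 on that axis.

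M2 was the highest animal in milk cells for 69 of the 120 members at day 30 and 84 at day 90. The shares of the transcripts past the filter were 46.8% and 62.3%, so a high rank of M2 was common outside the list too. M2 stood further apart in level at a set of members. In 13 of the 120 its milk cells held more than 2 times the value of the next animal on both days, against 3.90% of the transcripts past the filter. The level filter used a mean over all milk cell samples, so high values in M2 alone could carry a transcript past it. At chr16:31353128-31360621 M2 held 25.0 and 6.23 FPKM, where the next animals had 4.73 and 0.110. The count of 13 is therefore a description. These 13 had a median day ratio of 2.65 in milk cells, and 8.14 in M5, and their median level was 2.23 times higher in cells than in fat. The loci on chromosomes 7, 8, 15 and 16 described above were among them. So was chr3:102963348-102991955, with 213 FPKM at day 30 and 142 at day 90 in M2, where the next animals had 60.8 and 7.68, and chr1:132053345-132054976, with 176 and 75.01 against 71.6 and 12.6. Milk fat of M2 exceeded the next animal by 2 times on both days for 4 of the 13. In biopsies M2 was the highest of 6 for 2 of the 13, so the other 11 did not have their highest biopsy in this animal. All milk of M2 was sequenced in the same pool as that of M1, and markers of cell types could not be read, so what M2 differed in was not tested. Leaving out M2, 111 of the 120 members still met the rule in its form for 5 animals.

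Cell-free milk of day 90 held the members at 0.844 times the level of milk fat of the same animal and day by the median, beside 1.08 over the transcripts past the filter, and at 1.20 times that of milk cells, beside 1.06. The rule favoured low day 90 values in milk cells, so the latter ratio is a description only. By animal the ratio to fat ran from 0.663 in M2 to 0.880 in M3, and it was below 1 in all 6, while over the transcripts past the filter it was 0.958 in M5 and 1.03 to 1.32 in the other 5. The median ratio to milk cells ran from 0.914 in M2 to 1.28 in M6. Summed over the list, cell-free milk held 2656 to 3849 FPKM, day 90 milk cells 2026 to 4222, day 90 milk fat 3716 to 6574, and the 6 biopsies 1511 to 2971. Every cell-free sample lay below the day 90 milk fat of its own animal.

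The same rule turned round, with day 30 lower, gave 236 rising transcripts (2.39% of those past the filter). Falling members lay at a higher level in milk cells (median 9.65 FPKM against 4.62 for the rising transcripts and 6.62 for all past the filter) and had shorter loci (9678 against 33215 bases). Milk fat exceeded biopsies by a median of 2.12 times for the falling list and stood at 0.736 times for the rising list. In milk fat 24 of the 236 rising transcripts were below 1 in 4 of 4 animals (10.2%, beside 3.74% of those past the filter). No test was run between the lists, since both were chosen on milk cell values.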

How the data were processed

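RNA-seq of 34 samples from 6 rhesus macaques was analysed: 12 of milk cells, 10 of milk fat, 6 mammary biopsies and 6 taken as cell-free milk. The authors made poly(A) libraries, sequenced single reads of 100 bases in pools, trimmed them with Scythe and Sickle, used TopHat for alignment to rheMac2, and obtained FPKM of Ensembl transcripts from Cufflinks. These FPKM are the values deposited. They are divided by length and library size, and the read counts behind the authors' own DESeq tests were not analysed here. The table also held 6 columns that match no sample, which were not used.

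The 102 columns used were averaged over 3 runs per sample, and 0 of them were identical. The members and lists were chosen with earlier results of these data known. Ratios used FPKM + 0.1. For tests, each sample was divided by a median-of-ratios factor (0.691 to 1.40) over 21792 transcripts above 0 in all samples. limma 3.58.1 (R 4.3.3, trended prior) was then fitted to log2(scaled FPKM + 1) where a transcript averaged 1 FPKM or more, two-sided, with Benjamini-Hochberg adjustment over all of them and calls at an adjusted p under 0.05. Fold changes on this scale understate those of low transcripts. The fits and the depth estimate were tested on simulated data. Samples pair by animal, from the labels: within-animal correlations of deviations from the group means were 0.303 to 0.629 between days of milk fat and 0.0786 to 0.280 between milk fat and biopsies. Python 3.11.15 with numpy 2.4.6, pandas 2.3.3 and scipy 1.17.1 was used, and matplotlib 3.10.9 for plots.

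Loci were described by a rule: the 12 members with the highest mean FPKM, the 12 with the largest median ratio, those next to the threshold, and at most 2 identifiers, since 0 identifiers matched a name table. Other loci in the text (chromosomes 1, 3 and 10, and that of the lowest adjusted p in milk fat) were chosen after their values were seen. Chromosome X loci are written irregularly in the table and were read as X. Alternatives covered scaling, added constants, filters, the animal as a block and each animal left out.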

Additional observations from a re-analysis of the deposited data

Results flagged for a closer look

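Samples far from the rest of their group were looked for in 175 groups of values, over the sums, the ratios by animal and 24 described loci. A sample stood apart in 38. Chance alone marks about 1 in 20 groups, but the loci were chosen by their milk cell ratio or level and many groups share samples or reads, so the count is a description.

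Most were M2. Its day 90 milk cells had the highest sum over the members, 4222 FPKM. At chr7:118157224 M2 held 475 and 138 FPKM in milk cells (day 30 and day 90), 53.2 and 16.6 in milk fat and 6.94 in cell-free milk. At chr8:83718876 it held 206 and 101 FPKM in milk cells and 26.3 in day 30 fat. At chr15:81909935 the values were 10.5 FPKM in day 90 milk cells, and 7.10 and 1.72 in fat. At chr16:31353128 they were 25.0 and 6.23 FPKM in milk cells, and 1.403 and 0.775 in fat. At chr9:12427209 milk cells of M2 held 16.3 and 7.23 FPKM, and at chrX:80033936 they held 258 and 117 FPKM. Day 90 milk cells of M2 were apart at chr11:49338174 with 16.8 FPKM, at chr11:49338908 with 25.0 FPKM, which overlaps the former, and at chr7:157836341 with 127 FPKM. Day 90 fat of M2 was apart at chr14:76260677 with 689 FPKM and at chr7:155319360 with 322 FPKM. At chr1:48429688 M2 held 99.8 FPKM in day 90 milk cells and 144 in day 90 fat.

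M5 had the largest median ratio over the members in milk cells, 2.39. Its ratio was apart at chr7:118157224 (12.7), chr8:83718876 (13.98), chr9:12427209 (36.5), chr14:9316439 (2.59) and chr1:48429688 (2.61). At chr4:29289740 M5 was highest in level, with 349 FPKM in day 30 milk cells and 49.2 in day 90 fat.

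In milk fat the ratio of M3 was high at chr13:10210686 (8.18) and chr10:5494095 (1.19), and that of M1 was low at chr7:118157224 (1.77). At chr10:81594505 the ratio was above 1 in 6 of 6 animals in milk cells and below 1 in 4 of 4 in milk fat. Its median in fat was 0.948, with a range of 0.674 to 0.997. The difference between milk cells and fat was not tested.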

How the results depend on the processing

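The list depends on its constants. With median-of-ratios scaling 74 transcripts met the rule, with 1 FPKM added before the ratio 68, and with no filter on low values 272. Leaving out each animal in turn gave 131 to 307 transcripts (307 without M1, 219 without M2, 218 without M3, 296 without M4), of which 111 to 120 were members. Fewer animals had to pass in these counts. The members' median ratio in milk fat was 1.15 after scaling, and leaving out each animal gave 1.24 to 1.42. The 65 members above 1 in all animals with both days of fat became 47 after scaling. The shares of the transcripts past the filter were 22.1% and 9.3%. With an animal left out the count was 65 to 90, with 66 without M1, 66 without M2, 77 without M3 and 90 without M6. In these 4 cases only 3 animals had to pass, and the shares past the filter were 25.1%, 23.7%, 40.6% and 39.4%. Pairing by animal was checked with the animal as a replicate block: limma called 0 members between days of milk fat, with 33 higher at an unadjusted p under 0.05 (4.2% of all transcripts), and 75 members between milk fat and biopsies in place of 70 (57.3% of all transcripts in place of 55%). No paired fit was possible for biopsy days because they come from different animals. Member calls between days were 0 in milk fat and in biopsies under each alternative run. Over all transcripts, the most called between days were 2 in milk fat and 11 in biopsies, both without M3. Calls between fat and biopsies ranged from 62 to 76 members with an animal left out, beside 47.2% to 53.4% of all transcripts tested. The median ratio of milk cells to fat, 0.975, ranged from 0.910 to 1.02 with an animal left out and passed 1 without M1, a move smaller than the spread between animals. In all, 102 values for the list stayed within that spread or within 1.5 times, and 8 moved further. FPKM give no read counts, so low members have no counting interval.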
